A study of Caenorhabditis elegans with 2 samples.

Results

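The palindromic core ATCGAT lay at the summit of 217 of the 1244 CEH-39 binding peaks in the authors' IDR list for C. elegans embryos. Some peaks of that list were absent from a replicate's own list. A peak was taken where all 6 letters lay within 50 bp of its summit, the position at which the authors' caller placed the peak's maximum; the other 1027 peaks had no such core. The hexamer reads the same on both strands, so each match was counted once, and matches could overlap. Chromatin immunoprecipitation with sequencing (ChIP-seq) was done on whole mixed-stage, mixed-sex embryos of strain OP169, whose labelled genotype is unc-119(ed3) III; wgIs169. The integrated transgene wgIs169 makes CEH-39 fused to eGFP, the antibody is labelled ceh-39, and both samples carry the same genotype and stage. There was 1 group, of 2 biological replicates, and so no groups of samples were compared; peaks with the core were set against peaks without it. The embryos were not sorted into cell types, so a peak in few cells and weak binding in many cannot be told apart. A peak's signal value is the authors' own, on a scale not given in the sources used, and read counts were not used, so sequencing depth is unknown.

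CEH-39 belongs to the ONECUT family, transcription factors that contact DNA through a cut domain and a homeodomain. In C. elegans it is known as an X signal element: a product of the X chromosome that acts in early embryos on xol-1, the switch gene of sex determination, so that X dose is read. ATCGAT and the related ATTGAT are known cores of ONECUT binding sites, and in mammals the family is known from liver, pancreas and neurons. Bases beside the core were not part of the choice of peaks.

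The sites below are examples of the flanked cores GATCGATA and AATCGATA, the 2 that were more frequent at summits than at other promoter cores, and were picked for those flanks; other strong summits, such as that of rpl-23, have other flanks. They are read in ce11 from the WBcel235 reference, 30 bases each and 5′ to 3′, with the core in capitals and each turned so that A follows it. The first 5 have G before the core, the pair of flanking bases with the highest ratio of summit to other cores; the other 6 have A before it and include the sites upstream of ceh-39 and xol-1.
nono-1, chrIII:5958290-5958319, plus strand: aaaaatgaacggATCGATagaaaagggtgc
zfp-3, chrX:1446836-1446865, minus strand: cttgtgtctacgATCGATagggaaacgcac
spk-1, chrIII:9456342-9456371, plus strand: atcaaactcgagATCGATatttctggcgca
ceh-38, chrII:6951668-6951697, minus strand, in an annotated UTR: gactagacaccgATCGATactgatggccac
ins-34, chrIV:14104890-14104919, minus strand: ttgggaaaatggATCGATaattcagtgagc
Y17D7C.2, chrV:18723877-18723906, minus strand: caccgaacctaaATCGATatttctccccac
madd-3, chrX:14297296-14297325, plus strand: gtcagtcagcaaATCGATaattggtttggg
cec-4, chrIV:7575326-7575355, plus strand: ggacctgacgaaATCGATaattaatccttg
fib-1, chrV:15002315-15002344, minus strand: gtttgcttgcgaATCGATaaagtgtcggtt
ceh-39, upstream, chrX:1857919-1857948, plus strand: gactcattcacaATCGATattcttaatgat
xol-1, upstream, chrX:8036408-8036437, minus strand: cgcgatggaaaaATCGATaattttttatcg

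The core occurred 37650 times in the genome, and 269 of these, or 0.715% (95% exact interval 0.632% to 0.805%), lay within 50 bp of an IDR summit. In promoter windows, which here reach from 1000 bp before to 200 bp after the start of a protein-coding transcript, 163 of 10647 cores did (1.53%, interval 1.31% to 1.78%). Most cores, promoter ones included, were therefore not at a called summit. Of windows as long as the summit window (101 bp), 3.34% of those tiling the genome held the core, 3.71% of those tiling promoter windows and 5.95% of those centred 350 bp to either side of the same summits. Intervals here and below cover counting error only, and neighbouring peaks are not independent.

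**Figure D1:**
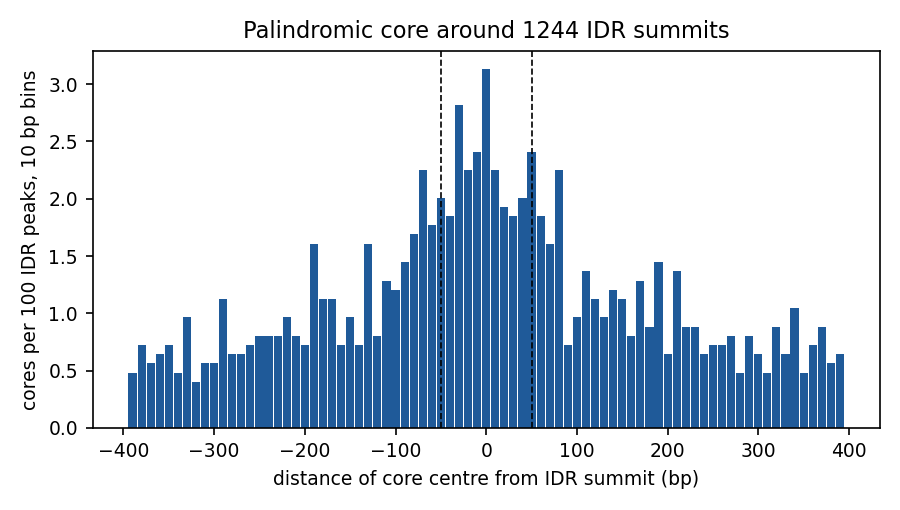
Number of ATCGAT cores per 100 IDR peaks (y axis) in bins of 10 bp by the distance of the core's centre from the summit (x axis, bp), over all 1244 IDR peaks; dashed lines mark 50 bp, the limit of the rule. The bars are highest at the summit and fall off to either side, with no step at the dashed lines.

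Among the core-bearing peaks, the nearest core's centre lay a median of 18.5 bp from the summit (quartiles 7.5 and 31.5 bp). In 69 peaks it lay within 10 bp and in 24 it lay 40 to 48 bp away, so cores were not all at the maximum itself. The limit of 50 bp splits similar peaks. The 20 members whose farthest core base lay closest to the limit had signal values of 76.81 to 483.7 (median 116.6), and 12 were in promoter windows. The 17 peaks just outside it had 82.25 to 366.8 (median 105.7), and 13 were in promoter windows.

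The bases beside the core differed between cores at IDR summits and promoter cores away from those summits. Merging strands, there are 10 possible pairs of flanking bases, and the 269 summit cores were compared with 9821 promoter cores at least 500 bp from any IDR summit. G before and A after the core (GATCGATA, or TATCGATC on the other strand) made up 41 summit cores (15.2%) and 6.01% of the others, a ratio of 2.54 (Fisher's exact test, two-sided, Benjamini-Hochberg adjusted over the 10 pairs, p = 5.272e-07). A before and A after the core (AATCGATA, or TATCGATT) made up 141 summit cores (52.4%) against 32.5% (ratio 1.61, adjusted exact p = 4.164e-10). These counts took every summit core, in promoter windows or not, and repeated cores of 1 window are not independent. With 1 core per peak, AATCGATA made up 44.2% (adjusted exact p = 0.00211) and GATCGATA 17.5% (adjusted exact p = 5.526e-08). Without windows of 3 or more cores, AATCGATA made up 42.7% (adjusted exact p = 0.00872). In all, 8 of the 10 pairs passed an adjusted p of 0.05, 2 higher and 6 lower at summits. The lower calls depended on the peaks and the cores compared: 0 of the 6 passed against cores 350 bp to either side, among promoter summits alone, without windows of 3 or more cores or without mostly soft-masked windows, and 1 did at the summits of replicate 2 alone. The cores 350 bp to either side came from 148 windows with a core, a far smaller set than the 9821 promoter cores. The pairs that were lower included TATCGATA (1.49% against 4.75%, adjusted exact p = 0.0129), AATCGATT (8.55% against 15.6%, adjusted exact p = 0.00357) and CATCGATA (2.6% against 6.68%, adjusted exact p = 0.0112).

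GATCGATA was the flanked core most often found at a summit. Of 663 promoter copies, 33 lay at an IDR summit (4.98%, interval 3.45% to 6.92%), against 65 of 3547 copies of AATCGATA (1.83%, interval 1.42% to 2.33%). CATCGATA lay at a summit in 4 of 686 promoter copies (0.583%, interval 0.159% to 1.49%), and TATCGATA in 3 of 485 (0.619%, interval 0.128% to 1.8%). The higher share of GATCGATA passed the test under every alternative run. That of AATCGATA did not: against cores in the windows 350 bp to either side it was 52.4% and 49.7% (adjusted exact p = 0.655), among promoter summits alone 39.9% (adjusted exact p = 0.157), without mostly soft-masked windows 39.9% (adjusted exact p = 0.0943), and at the summits of replicate 2 alone 41.4% against 32.9% (adjusted exact p = 0.148).

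The 40 peaks holding GATCGATA lay at 32 promoter windows and 8 intergenic summits, with none in an intron. Their median signal value was 134.7, beside 113.2 over all 217 core-bearing peaks. Of the 40, 29 were among the 622 strongest IDR peaks. They were led by the peaks of nono-1, zfp-3, spk-1, ceh-38 and ubc-9. The 100 peaks holding AATCGATA had a median signal value of 112.6 and lay at 62 promoter windows, 18 introns and 19 intergenic summits. Of these 100, 54 were among the 622 strongest IDR peaks. AATCGATA peaks supplied 8 of the 15 strongest core-bearing peaks and GATCGATA peaks 3, while they made up 100 and 40 of all 217. These counts were not tested against the shares among all core-bearing peaks. The strongest of all, at C37A2.8, held TATCGATA, which made up 1.49% of summit cores, 4.75% of promoter cores away from summits and 0.629% of cores 350 bp to either side of summits. The last share rests on a small set of cores, drawn from 148 windows that held the core.

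The letters around single cores were described separately, since windows with several cores repeat the same letters. In the 124 windows with 1 core that could be oriented, with A after the core and not T before it, the base before the core was A in 65.3%, G in 29.0% and C in 5.65%. In 4438 promoter cores away from summits, oriented the same way and not limited to windows with 1 core, it was A in 71.9%, G in 13.3% and C in 14.8%. Over all 189 summit cores that could be oriented it was A in 74.6%, G in 21.7% and C in 3.7%. A was the commonest base in each set. At the second base before the core, A made up 37.1% in windows with 1 core, 55.6% over all summit cores and 58.2% away from summits. These shares describe the sites and were not tested.

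A search of all 2080 hexamers (strands merged) in the summit windows, with the core's own letters masked, gave 0 that differed between peaks with and without the core (0% past an adjusted p of 0.05, Fisher's exact test with Benjamini-Hochberg adjustment). Unadjusted, 132 had a p under 0.05, 87 of them higher with the core and 45 lower, and the smallest adjusted p was 0.246. TCTGAA (or TTCAGA), the hexamer with that p, was in 7.37% of core-bearing windows and 1.95% of the others. ACGCAG was in 11.1% against 19.1% (adjusted exact p = 0.467). ATTGAT, the related ONECUT core, was in 4.15% against 5.16%, and GAGAGA in 18.9% against 24.0% (adjusted exact p = 1 and 0.875). No match to a hexamer says only that those letters were not in the window.

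Core-bearing summits lay mainly upstream of protein-coding genes, as other IDR summits did, and in the IDR list were more often in introns. In promoter windows were 151 of 217 (69.6%, interval 63.0% to 75.6%) against 782 of 1027 (76.1%), a difference that missed the threshold (Fisher's exact test, two-sided, Benjamini-Hochberg adjusted over 11 features of the peaks, p = 0.0865). In introns were 29 (13.4%, interval 9.14% to 18.6%) against 76 (7.4%), which passed it (adjusted exact p = 0.0232). Intergenic summits numbered 36 (16.6%) against 162 (15.8%, adjusted exact p = 0.836). There was 1 core-bearing summit in a 3′ UTR and 0 in coding sequence or a 5′ UTR outside promoter windows, where 0 of 217 allows a share of up to 1.69%. Within promoters, the core-bearing summits lay a median of 176 bp upstream of the nearest start and the others 187 bp. At the summits of replicate 2 alone, the promoter and intron differences both turned. Promoter windows then held 75.7% against 64.2% (adjusted exact p = 0.173) and introns 8.41% against 12.05% (adjusted exact p = 0.656). That set was replicate 2's 1244 strongest peaks, of which 107 held the core, while 790 peaks of its list had a q-value under 0.05.

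Part of the intron group was repeated sequence. Of the 29 intron members, 13 (44.8%) had a summit window over 50% soft-masked, the reference's mark for repeats, against 3 of the 76 other intron peaks (3.95%). Without such windows, the excess of intron summits was 0.458 percentage points in place of 5.96 and did not pass the test. At the summits of replicate 2 alone it reversed to -3.64 percentage points. The intron members included the third strongest intron peak, within mom-1 (signal value 225; Porcupine, which acts in Wnt secretion), the peak in T28F4.1 (311.9) and that in dys-1 (136; dystrophin).

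**Figure D2:**
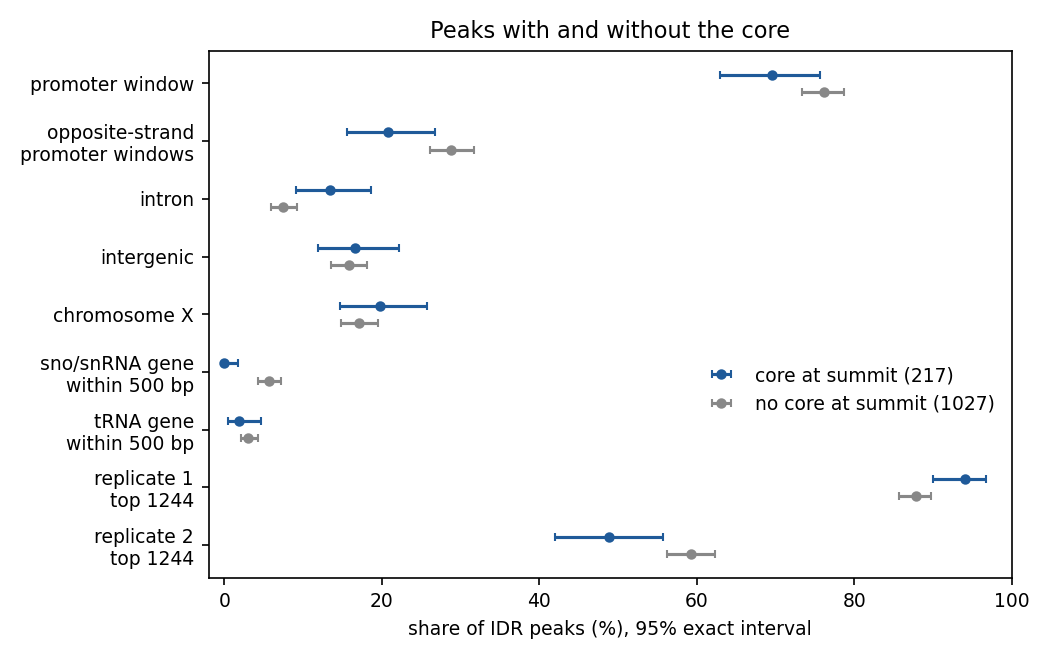
Share of IDR peaks (x axis, percent, with 95% exact intervals over peaks) having each feature (y axis), for the 217 peaks with the core at the summit (blue) and the 1027 without (grey). The intervals of the 2 sets stand apart for snoRNA and snRNA genes, 0% against 5.65%, for overlap with the strongest peaks of replicate 1, 94.0% against 87.8%, and, in the other direction, for replicate 2, 48.8% against 59.3%.

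Core-bearing peaks were less often shared by gene pairs that start back to back. The promoter windows of genes on opposite strands met at 45 core-bearing summits (20.7%, interval 15.5% to 26.8%) and at 296 of the others (28.8%, adjusted exact p = 0.0333). Such pairs with a core included nono-1 and nop-1, lin-35 and vps-51, and fib-1 and mut-15. The difference was -7.95 percentage points with windows reaching 2000 bp upstream, and -5.47 without mostly soft-masked windows, and passed the test in neither; among the summits of replicate 2 it was 0.728.

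No core-bearing summit lay within 500 bp of a gene for a small nucleolar or small nuclear RNA (snoRNA, snRNA), which guide RNA modification or act in the spliceosome. The count was 0 of 217 against 58 of 1027 other peaks (5.65%, interval 4.32% to 7.24%; adjusted exact p = 0.000227). This was the difference with the smallest adjusted p among the 11 features. It passed the test in every alternative run but the summits of replicate 2 alone, where it was -1.89 percentage points. Transfer RNA genes lay within 500 bp of 4 core-bearing summits (1.84%) and 31 others (3.02%, adjusted exact p = 0.607). The peak upstream of xol-1 was 1 of the 4, with a tRNA gene 277 bp from its summit.

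The core was spread over all chromosomes. On X lay 43 core-bearing peaks (19.8%) and 175 of the others (17.04%, adjusted exact p = 0.449). The share of IDR peaks with the core was 19.7% on X and 14.2% to 20% on the autosomes, lowest on V (22 of 155) and highest on I (48 of 240). A further core 51 to 150 bp from the summit was found at 41 core-bearing peaks (18.9%) and at 195 of the others (18.99%, adjusted exact p = 1). Another IDR summit within 2000 bp was found for 27 (12.4%) and 85 (8.28%, adjusted exact p = 0.105). Within the set, 4 pairs of neighbouring summits lay within 2000 bp of each other, and 3 pairs of windows shared a run of 25 bases, so a few members share sequence.

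The replicates did not rank the core-bearing peaks alike. The 1244 strongest peaks of replicate 1 overlapped 204 of the 217 (94.0%) and 902 of the 1027 others (87.8%, adjusted exact p = 0.0232). Those of replicate 2 overlapped 106 (48.8%, interval 42.0% to 55.7%) and 609 (59.3%, adjusted exact p = 0.0232). The core-bearing peaks thus ranked higher than the others in replicate 1, with median ranks of 518 and 646, and lower in replicate 2, with median ranks of 1191 and 760.5. The list of replicate 2 had no peak at 13 of the 217 and at 49 of the others.

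The signal value of the core-bearing peaks themselves ran from 35.09 to 433 in replicate 1 (median 96.32) and from 9.166 to 83.06 in replicate 2 (median 22.47). In replicate 1, 217 of 217 had a deposited q-value under 0.05, as did 1021 of the other 1027 (99.4%). In replicate 2, 89 did (41.01%), against 502 of the other 1027 (48.9%). Within promoter windows alone, replicate 2's strongest peaks overlapped 76 of 151 core-bearing peaks (50.3%) and 449 of 782 others (57.4%), which did not pass the test. In introns these shares were 44.8% and 65.8%, and at intergenic summits 47.2% and 65.4%. Replicate 1's list held 3958 peaks with a q-value under 0.05 and replicate 2's 790, and the part of this gap in the ranks was not tested. A set drawn from replicate 2 alone had the core at 107 of 1244 summits (8.6%), and one drawn from replicate 1 alone at 243 (19.5%), beside 217 of 1244 in the IDR list.

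**Figure D3:**
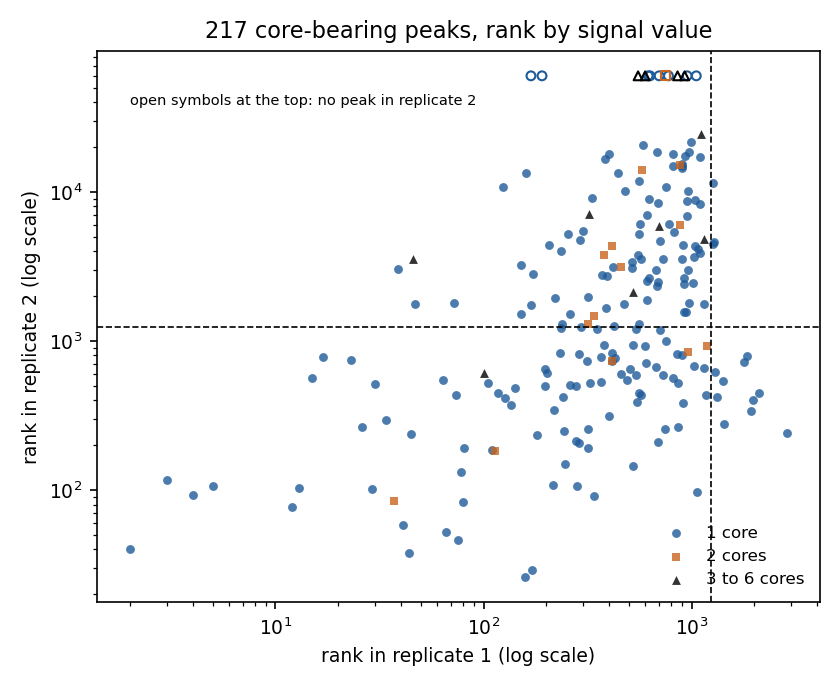
Rank of each of the 217 core-bearing peaks by signal value in replicate 1 (x axis) and replicate 2 (y axis), both on log scales, with rank 1 the strongest; symbols give the number of cores in the summit window, open symbols at the top are peaks with none in replicate 2, and dashed lines mark rank 1244. Most points lie left of the vertical line, 204 of 217 overlapping a peak of that rank or better, and about as many lie above the horizontal line as below it; the triangles, windows with 3 to 6 cores, lie above it in all but 1 case.

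Most core-bearing windows held a single core, and the exceptions fell into 2 kinds. There were 192 windows with 1 core, 14 with 2 and 11 with 3 to 6. The 192 had a median signal value of 116.1 and lay at 141 promoter windows, 17 introns and 34 intergenic summits. The 14 had a median of 109.8 and lay at 9 promoter windows and 5 introns. The 11 had a median of 87.83 and lay in 7 introns, 2 intergenic places, 1 promoter window and 1 3′ UTR.

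In the 14 windows with 2 cores, centres were 4 to 76 bp apart (median 25 bp), and 5 of the pairs overlapped in the run ATCGATCGAT, 4 bp apart. Those 5 were at K07B1.7, D1046.16, cul-2, T25E12.6 and enee-1. The strongest of them, 21 bp upstream of K07B1.7 and 61 bp upstream of try-5, a secreted protease gene, had a signal value of 221.9 and rank 114 in replicate 1 and 182 in replicate 2. The peak of cul-2, a cullin of ubiquitin ligases, had a signal value of 105.9 and ranks of 579 and 14030. The strongest window with 2 separate cores, 39 bp apart, lay 761 bp upstream of pbrm-1, a polybromo subunit of the SWI/SNF remodelling complex (signal value 295.9, ranks 37 and 84). Others were at csn-2 (119.2, cores 54 bp apart; a subunit of the COP9 signalosome), skr-16 (113.7, 19 bp apart; a Skp1-related gene) and within dys-1 (136, 76 bp apart).

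The 11 windows with 3 or more cores repeated the core at short steps, in some of them regular and in others not. Their 38 spacings between neighbouring cores ran from 14 to 58 bp with a median of 19 bp, and 24 of the 38 were 18 to 20 bp. Every spacing was 18 to 20 bp in 4 windows, at least 1 was in 8, and none was in 3. In all 11, over 50% of the window was soft-masked (lowest 73.3%). The 3 windows below show regular steps; they are the 101 bases of the summit window on the plus strand of ce11, with the cores in capitals. They lie in an intron of mac-1, which encodes an AAA ATPase, in an intron of wht-8, an ABC transporter gene, and in intergenic sequence 10800 bp past the start of clp-4, a calpain gene. A 30-base site with 2 overlapping cores, upstream of K07B1.7, is given for comparison; 21 of its bases lie in an annotated UTR.
mac-1, chrII:13315845-13315945: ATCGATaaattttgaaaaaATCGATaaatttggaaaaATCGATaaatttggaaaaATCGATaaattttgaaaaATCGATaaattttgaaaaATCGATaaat
wht-8, chrIII:11221774-11221874: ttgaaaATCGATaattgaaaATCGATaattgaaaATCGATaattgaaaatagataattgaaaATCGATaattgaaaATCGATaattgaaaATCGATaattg
clp-4, chrIII:1807469-1807569: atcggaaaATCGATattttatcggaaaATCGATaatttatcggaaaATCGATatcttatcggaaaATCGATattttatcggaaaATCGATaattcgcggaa
K07B1.7, chrV:9346942-9346971, plus strand: tagtgaatATCGATCGATatcgacttgatg

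The mac-1 window held 6 cores 18 or 19 bp apart, the wht-8 window 6 cores 14 or 28 bp apart and the clp-4 window 5 cores 19 bp apart. In each, A followed the core and, wherever the window shows it, A came before it. Signal values were 212.9 at mac-1, 81.52 at wht-8 and 79.2 at clp-4, so the number of cores did not order the peaks by signal. The strongest window with 3 or more cores lay in an intron of ugt-31, a UDP-glucuronosyltransferase gene (238.1), and its 3 cores were unevenly spaced, 16 and 54 bp apart.

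All 11 of these windows were overlapped by the 1244 strongest peaks of replicate 1, and 1 of them, at mac-1, by those of replicate 2 (9.09%, against 52.1% of windows with 1 core). At mac-1 the ranks were 101 in replicate 1 and 607 in replicate 2. At ugt-31 they were 46 and 3530, at H05C05.2 (5 cores) 322 and 7158, and in an intron of Y66A7A.4 (3 cores) 522 and 2134. The remaining 7 ranked from 553 to 1153 in replicate 1, and 4 of them, in introns of Y82E9BR.18 and Y48G1A.1, upstream of Y48E1C.1 and past clp-4, had no peak in replicate 2's list. How reads from such repeats were placed is not given in the sources used, and its part in these ranks was not tested. Without the 11 windows the replicate 2 difference was -8.33 percentage points in place of -10.4, the replicate 1 difference 5.86 in place of 6.18, and the intron difference 3.28 in place of 5.96, and none of the 3 passed the test.

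**Figure D4:**
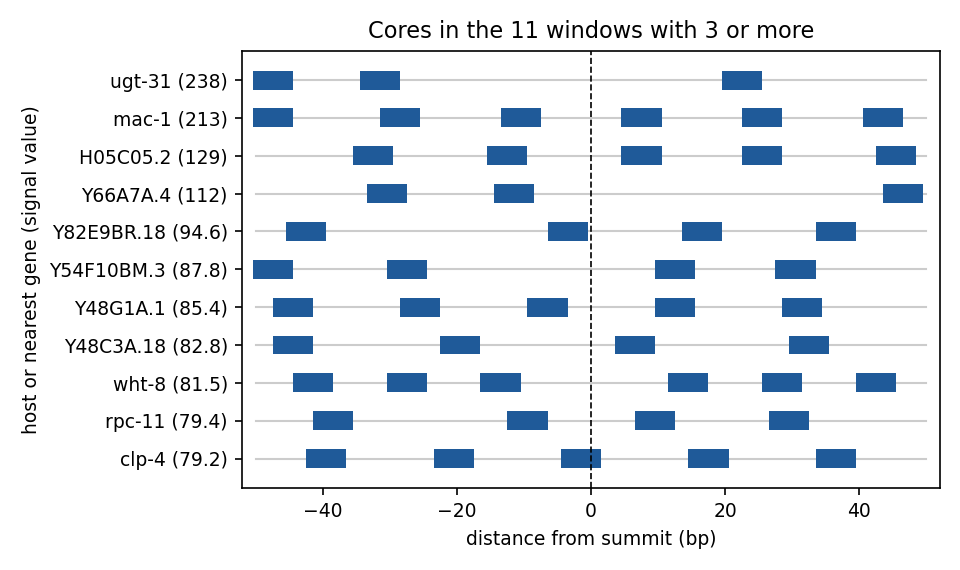
Position of each ATCGAT core (blue blocks, 6 bp, to scale) by distance from the summit (x axis, bp) in the 11 windows with 3 or more cores, each named by the gene that holds it or has the nearest start, with its signal value in brackets, strongest at the top. In 4 rows (mac-1, H05C05.2, Y48G1A.1 and clp-4) every spacing is 18 to 20 bp, the wht-8 row has steps of 14 bp with a gap of 28 bp, and other rows, such as ugt-31 with 16 and 54 bp, are uneven.

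Most core-bearing peaks bound 0 or 1 gene, as most other IDR peaks did, and together they bound a small share of the genome's genes. A gene was counted as bound where a summit lay in its promoter window. Core-bearing summits bound 200 of 19973 protein-coding genes (1.00%), and any IDR summit bound 1294 (6.48%), so 15.5% of bound genes had a core at a summit. Of the 217 peaks, 66 bound no gene, 102 bound 1, 48 bound 2 and 1 bound 3. Of the 1027 others, 245 bound no gene, 470 bound 1, 288 bound 2 and 24 bound 3 or more. A further peak without the core bound 10 of the 200 genes.

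The 15 strongest core-bearing peaks had signal values of 283.8 to 506.5, and 13 lay in promoter windows. They ranked from 2 to 44 in replicate 1 and from 38 to 775 in replicate 2, so each was among the 1244 strongest of both. The strongest, chrI:6799531-6799799, lay 52 bp upstream of C37A2.8 and 726 bp upstream of E02D9.1, with signal values of 433 in replicate 1 (rank 2) and 76.82 in replicate 2 (rank 40) and 506.5 in the pooled list. The next, chrIII:5958223-5958462, lay 102 bp upstream of nono-1, a homologue of the RNA-binding protein NONO, and 374 bp upstream of nop-1, which acts in pseudocleavage of the early embryo. Its signal value was 483.7, with 431.9 in replicate 1 (rank 4) and 52.41 in replicate 2 (rank 93). Both were high in both replicates.

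The other strong promoter peaks belonged to genes of varied roles. K04G2.10 had a signal value of 475.7 at 180 bp upstream. set-10, a SET domain gene, had 394.6 at 235 bp upstream, and its core lay 0.5 bp from the summit. madd-3, a CLK-type protein kinase, had 368.1 at 657 bp, and zfp-3, a zinc finger gene, 333.2 at 236 bp, both on X. One peak of 330.7 lay between spk-1, the SR protein kinase that acts on splicing factors (253 bp), and rheb-1, the Rheb GTPase upstream of TOR (325 bp). It ranked 17 in replicate 1 and 775 in replicate 2, the widest gap in rank of the 15.

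Of the remaining strong peaks, ZK643.2 and ZK643.5 shared one of 318, and W08E3.4 and snr-2, the Sm protein B of the spliceosome, one of 313.6. cec-4, the chromodomain protein that anchors heterochromatin to the nuclear periphery, had 305.1 at 371 bp upstream. rpl-23, a protein of the large ribosomal subunit, shared a peak of 297.7 with swp-1. fib-1, the nucleolar methyltransferase fibrillarin, shared one of 283.8 with mut-15, a mutator gene of small RNA pathways. Outside promoter windows, the peak 3861 bp upstream of Y17D7C.2 had 419.7 and the one in an intron of T28F4.1 311.9; the latter ranked 44 and 38, nearly alike in the 2 replicates.

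A core-bearing summit lay in the promoter window of 1 of the 6 ONECUT genes, ceh-38, and others lay farther upstream of ceh-39 and xol-1. A peak at chrII:6951544-6951849 had its summit 17 bp downstream of the start of ceh-38, a ONECUT gene, and 383 bp upstream of malt-1, the paracaspase gene. Its signal value was 267.9, with 248.6 in replicate 1 (rank 39) and 17.42 in replicate 2 (rank 3043), so it was strong in replicate 1 alone. A peak at chrX:1857802-1858151 lay 1805 bp upstream of ceh-39 itself, outside its promoter window, with a signal value of 277.8, 267.1 in replicate 1 (rank 30) and 29.56 in replicate 2 (rank 515). The strain's transgene also carries ceh-39 sequence, and its part in this signal was not tested. The peak upstream of ceh-39 was the nearest core-bearing one to ceh-21 (5241 bp) and ceh-41 (9302 bp), which lie beside ceh-39. The nearest to ceh-49 and ceh-48 were 76.1 kb and 211 kb away.

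The nearest core-bearing peak to xol-1 lay 4905 bp upstream, at chrX:8036323-8036506, with a signal value of 251.7. It had 154.4 in replicate 1 (rank 158) and 83.06 in replicate 2 (rank 26), the highest replicate 2 signal value of the 217. None of the 22 genes listed for sex determination and dosage compensation had a core-bearing summit in its promoter window, and 4 had another IDR summit there. Over all protein-coding genes the share with a core-bearing summit was 1.00%, and over bound genes 15.5%. With so few genes, the count of 0 does not set this list apart.

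The share of bound genes with a core-bearing peak varied between gene lists, from 0 upward. Of 81 cytosolic ribosomal protein genes, 62 were bound by an IDR peak and 2 of those (3.23%) by a core-bearing one, rpl-23 (297.7) and rpl-30 (155.1, shared with pab-1, the poly(A)-binding protein gene). Over all bound genes the share was 15.5%. A peak of 315.2 at rpl-41.2 was not counted as core-bearing, since its core reached 55 bp from the summit, just outside the limit. Histone genes had 0 of 15 bound genes with a core, chaperones 0 of 18, translation factors 0 of 15 and proteasome subunits 0 of 9. Of 26 bound genes of the secretory pathway, 2 had one, sec-15 (131.6, exocyst) and vps-51 (121.2, the GARP tethering complex). These counts describe the lists, and neighbouring genes share peaks.

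Several lists, housekeeping ones among them, had a share near that of all bound genes or above it. Chromatin modifiers had 4 of 14 bound genes with a core-bearing peak (28.6%): set-10 (394.6), spr-4 (126.9), met-1, an H3K36 methyltransferase (126.8), and swsn-6, a SWI/SNF subunit (106.7). Splicing genes had 3 of 20 (15%), which were snr-2 (313.6) and the SR protein genes rsp-1 and rsp-2. The latter 2 share a peak of 80.66, with no peak in replicate 2. Mitochondrial ribosomal protein genes had 2 of 14 (14.3%), mrps-28 (171.2) and mrpl-40 (155). Respiratory genes had 2 of 16 (12.5%), asg-2, subunit g of the ATP synthase (120.1), and cox-6C, a cytochrome oxidase subunit (84.94).

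Cell cycle genes had 2 of 16, lin-35, the retinoblastoma homologue (121.2, a peak shared with vps-51), and cya-1, cyclin A (90.63, with no peak in replicate 2). Of 4 bound aminoacyl-tRNA synthetase genes, fars-1 had a core (25%, signal value 102.5, rank 11811 in replicate 2). Of 3 bound pan-neuronal genes snb-1, synaptobrevin, had one (113, 406 bp upstream, rank 3773 in replicate 2). Nuclear hormone receptors (6 bound of 269), cuticle collagens (4 of 171) and homeobox ceh genes outside ONECUT (4 of 57) had 0 with a core. For genes without a protein product, an IDR summit within 500 bp was counted. Of 612 tRNA genes, 39 had an IDR summit that near and 5 a core-bearing one, and of 44 bound snoRNA genes and 16 bound snRNA genes 0 had one.

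**Figure D5:**
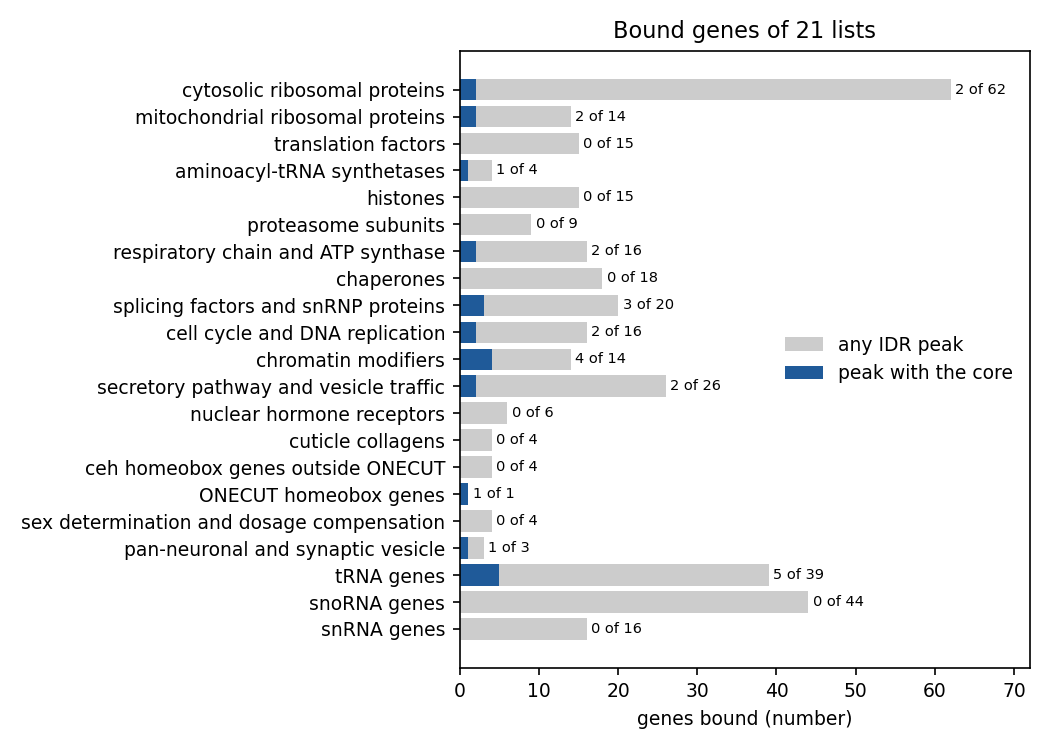
Number of genes in each of 21 lists (y axis) that were bound by any IDR peak (grey bars, x axis) and by a peak with the core at its summit (blue part of the bar); the figures at the bar ends give core-bearing of all bound. Cytosolic ribosomal protein genes have the longest bar, 62, of which 2 are blue, and chromatin modifiers the most blue, 4 of 14, apart from the tRNA genes with 5 of 39.

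Peaks on X and away from promoters added further strong sites. On X, after madd-3, zfp-3 and the peak upstream of ceh-39, the strongest core-bearing peak lay 226 bp upstream of K04C1.2 (261.6, ranks 80 and 83) and another lay 4349 bp upstream of W10G6.1 (228.7, ranks 110 and 187). The peak in an intron of mom-1, also on X, had ranks of 171 and 29. Of the 36 intergenic members, the median signal value was 122.6, against 116.6 for the 151 in promoter windows and 108.4 for the 29 in introns. An intergenic peak of 214.2 lay 1629 bp upstream of ins-34, an insulin-like peptide gene, and held GATCGATA. Over all 217 the median was 113.2 (quartiles 89.82 and 163.6), beside 107.8 for peaks without the core.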

How the data were processed

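ChIP-seq of eGFP-CEH-39 was analysed from peak lists of 2 biological replicates of OP169 embryos (library size range 150 to 350, unit not given, per the labels). Per the deposited description files, peaks were called on each replicate with a control and on both pooled, and the IDR list came from those 3 lists. The control was not analysed here and the ce10 lists were not used here. Neither aligner nor peak caller is given in the sources used. The deposited signal value was used as the authors gave it to rank and describe peaks. Column 9, the −log10 q-value deposited by the authors, served to count peaks with a q-value under 0.05. Depth is unknown.

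Peaks were read in ce11, sequence from RefSeq WBcel235 and gene models from Ensembl release 115. Each summit got the first class that held it: promoter window, 5′ UTR, coding, 3′ UTR, intron, and otherwise intergenic. Soft-masked bases are lower case in the reference. Peaks with and without the core were compared with Fisher's exact tests, two-sided, with Benjamini-Hochberg adjustment over 11 features, 10 flank pairs or 2080 hexamers. These tests count peaks or cores, not samples, so they say nothing of the spread between replicates. A replicate was taken to rank a peak highly where 1 of its 1244 strongest peaks overlapped it by at least 1 bp. Each replicate alone, as an alternative, was its own 1244 strongest peaks, more than the 790 of replicate 2 with a q-value under 0.05.

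The core-bearing peaks, gene lists and tests were chosen with earlier results of these data known. Genes named were those of the 15 strongest peaks, of windows with several cores (up to 8 with 2 cores), up to 3 per gene list, up to 5 on X, in introns and in intergenic sequence, xol-1 and ONECUT genes; others named had been chosen after their values were seen. Alternatives changed the peak set, the summit window (25 or 100 bp), the promoter window (500 or 2000 bp upstream), the overlap rule and the compared cores. Leaving out windows with 3 or more cores, leaving out mostly soft-masked windows, using promoter summits only and counting 1 core per peak were chosen after seeing the data. The tests were checked on simulated data. Python 3.11.15, numpy 2.4.6, scipy 1.17.1, pandas 2.3.3 and matplotlib 3.10.9 were used.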

Additional observations from a re-analysis of the deposited data

How the results depend on the processing

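Differences are in percentage points, core-bearing minus other IDR peaks. No paired analysis was possible because the series holds a single group of 2 replicates. Taking each replicate's own peaks in turn, the difference ranged from -8.199 to 11.5 for promoter windows, -3.638 to 7.61 for introns, -7.32 to -0.3462 for intergenic summits, -7.883 to 0.7283 for opposite-strand promoters, -4.683 to -1.891 for snoRNA and snRNA genes and -0.3864 to 2.773 for a core 51 to 150 bp away. The same sets called 2 to 8 flank pairs, and GATCGATC ranged from -0.8364 to 0.4342. The peaks of replicate 2 alone gave 107 core-bearing summits and turned the direction for promoter windows, introns, intergenic summits, opposite-strand promoters, an outer core and GATCGATC.

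The 622 strongest IDR peaks gave 5.602 for introns and 0.1988 for replicate 1 (neither past the threshold), 0.3341 for tRNA genes (reversed), 3 flank pairs and 1 hexamer, GGTCAC. The 2488 strongest pooled peaks gave -2.326 for intergenic summits and 3.728 for an outer core (both reversed), 6.748 for a neighbouring summit (now past it) and 1 hexamer, TCTGAA. With cores within 25 bp, introns (6.545), opposite-strand promoters (-7.962) and replicate 2 (-10.48) missed the threshold, tRNA genes (0.2172) and outer cores (5.698) reversed, and 3 flank pairs were called. With cores within 100 bp, introns gave 2.976, a neighbouring summit reversed to -0.9427, and outer cores to 39.37, since that zone then overlaps the rule's own window. Promoter windows of 500 bp gave -0.8597 for intergenic summits, and of 2000 bp -0.8126 (both reversed), -7.949 for opposite-strand promoters and 4.199 for introns.

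Requiring 50% of a peak covered gave 5.792 for replicate 1, and overlap with the whole list of a replicate 0.5842 and -1.22 for replicates 1 and 2. Against cores 350 bp to either side, 1 flank pair was called, and CATCGATC (1.573), GATCGATC (0.8581) and TATCGATA (0.8581) reversed. Of the alternatives chosen after seeing the data, leaving out windows with 3 or more cores gave 3.279 for introns, -6.977 for opposite-strand promoters, 5.861 and -8.328 for replicates 1 and 2, and 2 flank pairs. Leaving out mostly soft-masked windows gave 0.4575, -5.473 and 1 flank pair. Promoter summits alone gave 4.014 and -7.086 for replicates 1 and 2 and 1 flank pair, and 1 core per peak gave 3 flank pairs. None of the differences in this paragraph passed the threshold, and the cause was not tested. Leaving out windows or using promoter summits alone also left fewer peaks, and comparing with cores 350 bp to either side left fewer cores. The part of that was not tested. Depth is unknown, so no limit from it can be given.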

Other observations

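Core-bearing peaks at some other genes of embryonic interest were named after their values were seen, and no test was made of them. A peak in an intron of fox-1, an RNA-binding protein known as another X signal element, had a signal value of 139.4 and ranks of 381 in replicate 1 and 937 in replicate 2. ubc-9, the SUMO-conjugating enzyme, had a peak of 257.3 at 224 bp upstream (ranks 78 and 133) and held GATCGATA. chd-7, a chromodomain helicase, had one of 239.2 at 963 bp upstream (ranks 81 and 192). nrde-3, the Argonaute of nuclear RNA interference, had one of 165.1 at 311 bp upstream (ranks 288 and 208). plk-1, the Polo kinase of mitosis, had one of 92.68 at 221 bp upstream, which ranked 898 in replicate 1 and 15388 in replicate 2.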
